A study of Mus musculus with 14 samples.

Results

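The genes described here make, carry, store and break down the monoamine transmitters serotonin, dopamine and noradrenaline, and include the plasma membrane transporters to which cocaine binds. The 9 genes are the transporters Slc6a4, Slc6a3, Slc6a2 and Slc18a2, the synthetic enzymes Th, Tph1 and Ddc, and the degrading enzymes Maoa and Maob. They were found as the non-control probes whose array identifier maps to these symbols, which gave 11 probes of the 55681 on the array. Of these, 6 genes with 7 probes were well above background on at least 6 of the 14 arrays and entered the tests, out of 11497 tested genes with a symbol among 20022.

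Blood RNA from 14 mice was measured on 1-colour Agilent mouse arrays, 1 array per mouse. The 8 SS mice (4 labelled male, 4 labelled female) had been exposed to hostile social surroundings in the third week of life. The 6 SI mice (4 labelled male, 2 labelled female) had been kept apart from other mice, as juveniles by the design text and in the third week by the protocol. Every mouse of both groups had been given cocaine below the threshold dose (5 mg/kg) in conditioned place preference, a test of drug seeking, followed by extinction and withdrawal, and was bled 24 hours after that. The comparison is therefore between kinds of early adversity in mice that had all received cocaine, and no unstressed or cocaine-free mouse was among the samples. Neither strain nor age at sampling is stated by the labels, which call the cells PBMC and name only EDTA blood and red cell lysis, a preparation in which platelets can remain.

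Monoamine neurons take their transmitter back up through Slc6a4 (serotonin), Slc6a3 (dopamine) or Slc6a2 (noradrenaline), and cocaine blocks all of these carriers. Slc18a2 then loads the amine into vesicles. Platelets use the same serotonin machinery without making the amine: Slc6a4 takes serotonin from plasma, and Slc18a2 packs it into dense granules. Gut enterochromaffin cells make that serotonin with Tph1.

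Each sex label had a slide of its own, so that a difference between the sex labels cannot be told apart from one between slides. Within each slide, SS and SI mice lay in different columns of the slide, so stress group and column cannot be told apart. The Y-linked genes Eif2s3y and Ddx3y were well above background on all 6 labelled female arrays and on 0 of the 8 labelled male arrays, which goes against the sex labels, so the mice are called labelled male and labelled female. Between 34.8% and 47.7% of spots were well above background. SI labelled male 4 was the dimmest array (brightness -1.06, as the median log2 ratio over probes to the average of the arrays). The lowest correlation between arrays of a group (0.83) was that of SI labelled male 4 with SI labelled male 7, the brightest array (1.06). Differences and slopes were also fitted without SI labelled male 4, whereas the correlations were not repeated without it. The number of mice limits the precision throughout, and with 2 SI labelled females the second slide is the less precise.

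Promoter sequence is shown for the 4 members that were higher in SS mice and for Pf4, the platelet chemokine against which they were set, so that the upstream letters of genes that moved together can be compared. Each runs 5′ to 3′ on the gene's strand from 250 bases before to 50 bases after the transcript start (RefSeq, GRCm38.p6). Capitals mark matches, on either strand, to an A or a T, then GATA, then an A or a G, the letters bound by GATA factors of megakaryocytes and red cell precursors.
Slc6a4 (chr11:76998347-76998646, plus strand): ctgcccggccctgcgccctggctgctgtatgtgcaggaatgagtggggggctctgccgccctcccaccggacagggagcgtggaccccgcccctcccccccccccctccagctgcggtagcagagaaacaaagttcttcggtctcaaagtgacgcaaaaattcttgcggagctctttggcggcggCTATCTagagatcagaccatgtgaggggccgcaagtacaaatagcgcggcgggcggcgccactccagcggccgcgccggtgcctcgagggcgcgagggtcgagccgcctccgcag
Slc18a2 (chr19:59260628-59260927, plus strand): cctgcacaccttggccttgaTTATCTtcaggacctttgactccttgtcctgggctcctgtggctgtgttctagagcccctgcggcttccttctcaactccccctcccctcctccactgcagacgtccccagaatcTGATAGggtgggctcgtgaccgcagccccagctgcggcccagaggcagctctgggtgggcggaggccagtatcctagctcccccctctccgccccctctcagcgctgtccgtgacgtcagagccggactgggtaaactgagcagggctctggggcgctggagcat
Slc6a3 (chr13:73536497-73536796, plus strand): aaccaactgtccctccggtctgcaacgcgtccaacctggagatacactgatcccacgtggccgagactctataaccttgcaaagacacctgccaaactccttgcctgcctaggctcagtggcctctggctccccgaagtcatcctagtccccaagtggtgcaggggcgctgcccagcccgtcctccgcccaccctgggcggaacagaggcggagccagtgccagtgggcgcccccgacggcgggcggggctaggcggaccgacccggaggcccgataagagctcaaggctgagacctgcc
Ddc, the first of its 2 listed starts (chr11:11898095-11898394, minus strand): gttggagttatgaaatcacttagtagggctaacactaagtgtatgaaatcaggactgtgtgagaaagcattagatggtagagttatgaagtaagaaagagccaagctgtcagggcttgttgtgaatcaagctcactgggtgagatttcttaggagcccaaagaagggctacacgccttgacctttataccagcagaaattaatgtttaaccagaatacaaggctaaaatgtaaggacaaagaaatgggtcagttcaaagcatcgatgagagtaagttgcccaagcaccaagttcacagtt
Pf4 (chr5:90772185-90772484, plus strand): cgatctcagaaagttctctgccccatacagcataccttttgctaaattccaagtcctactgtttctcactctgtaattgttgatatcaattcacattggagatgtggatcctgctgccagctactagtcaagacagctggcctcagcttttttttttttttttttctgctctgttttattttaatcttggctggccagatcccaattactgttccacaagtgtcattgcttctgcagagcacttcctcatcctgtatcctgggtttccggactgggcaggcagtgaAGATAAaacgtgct
Slc18a2 held 2 matches, at -230 and -115 from the start. Slc6a4 held 1, at -65, and Pf4 held 1, at 37. Neither Slc6a3 nor either Ddc promoter held one, nor did that of Th. Maoa and the first of the 2 Tph1 promoters, genes well above background on 0 arrays, each held 1, at -238 and -236. Of all 32851 promoters of this length, 29.8% held at least 1 match, and 7 of the 18 platelet marker genes with an entry did. A match describes letters in this window and says nothing of binding.

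The 4 members that passed the test in all mice were higher in SS: Slc6a4, Slc18a2, Ddc and Slc6a3 (3.06-fold, 2.59-fold, 2.52-fold and 2.37-fold). Th and Maob were measured and did not pass, and Tph1, Maoa and, on all but 1 array, Slc6a2 were not well above background. A difference was called at an adjusted p under 0.05 from limma, a linear model fitted to every tested probe, with slide and stress group as terms and Benjamini-Hochberg adjustment over all 24033. By that rule 7.41% of tested probes were higher and 0.57% lower in SS than in SI, and the median difference of all tested probes was -0.04 on the log2 scale. Among the 6 tested members 4 were higher and 0 lower, with a median difference of 1.29. Levels below are scaled log2 signals, which compare arrays for 1 probe and not probes with each other.

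**Figure D1:**
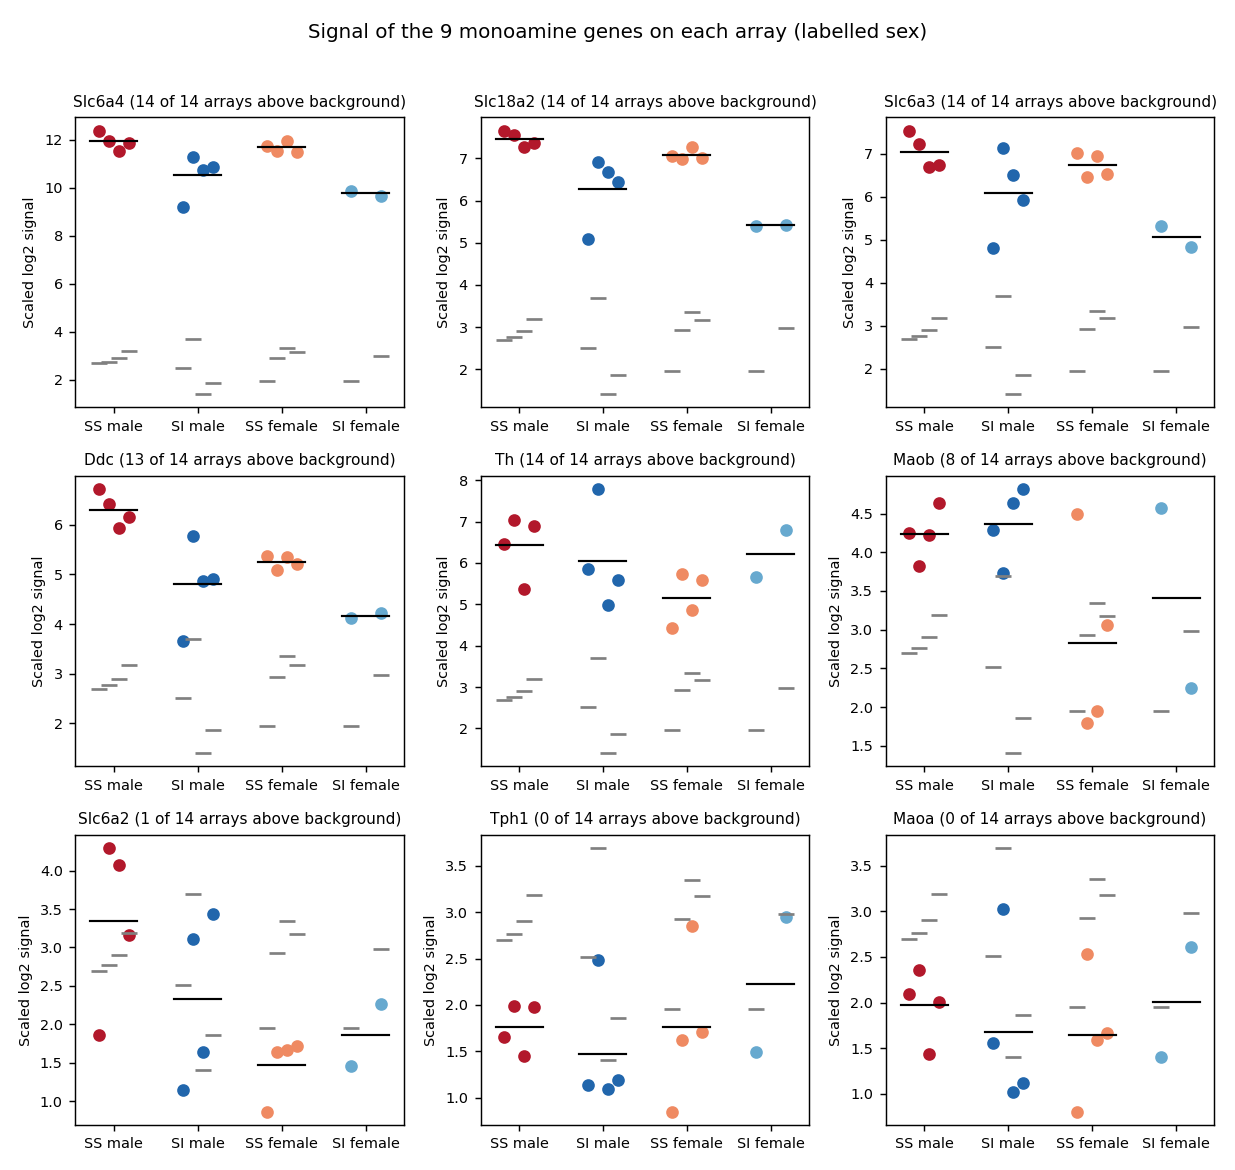
Scaled log2 signal (vertical axes, which differ between panels and do not start at 0) of the 9 genes on each array, by group (SS beside SI, labelled males and then labelled females; n = 4, 4, 4 and 2). Points are arrays, black lines are group means, and grey ticks are the lowest signal of any probe well above background on that array; for Slc6a4, Slc18a2 and Ddc all SS points lie above all SI points on each slide.

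Slc6a4, the serotonin transporter (probe A_55_P2074942), was well above background on all 14 arrays. Its level was 12.39, 11.95, 11.54 and 11.89 in the SS labelled males, against 11.31, 10.86, 10.75 and 9.22 in the SI labelled males. In the labelled females it was 11.97, 11.74, 11.56 and 11.48 in SS, against 9.86 and 9.68 in SI. Every SS array lay above every SI array of its slide, and SI labelled male 6 was the lowest array of all. Over both slides SS exceeded SI by 1.61 ± 0.28 (log2, SE; limma adjusted p = 0.00474). No single array ended that call (1.39 to 1.78, adjusted p at most 0.0224).

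Slc18a2, the vesicular monoamine transporter (probe A_55_P2143946), was also well above background on all 14 arrays. It stood at 7.66, 7.55, 7.36 and 7.28 in SS labelled males and at 6.91, 6.68, 6.44 and 5.09 in SI labelled males. In labelled females it stood at 7.27, 7.06, 7.00 and 6.99 in SS and at 5.41 on both SI arrays. The groups did not overlap on either slide, and the difference over both slides was 1.37 ± 0.25 (log2, SE; limma adjusted p = 0.00478). A second, dimmer probe of the gene (A_55_P2000489) differed by 1.22 ± 0.30 (limma adjusted p = 0.0186). It was well above background on 7 arrays: 2 SS and 1 SI labelled males, and 4 SS and 0 SI labelled females. It thus reached the 6 arrays needed for testing mainly through SS, so its call is no independent support. On that probe all 4 SS labelled females and neither SI labelled female were well above background, a difference of at least 2.49-fold, the SI side being set at the lowest signal called well above background on each array where its own was lower (measured means 4.50 in SS and 3.01 in SI; limma adjusted p = 0.106 in labelled females).

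Slc6a3, the dopamine transporter (probe A_51_P214187), is best known from dopamine neurons, and was well above background in blood on all 14 arrays. Its level was 7.54, 7.24, 6.75 and 6.69 in SS labelled males, against 7.13, 6.5, 5.91 and 4.80 in SI labelled males. It was 7.02, 6.96, 6.53 and 6.46 in SS labelled females, against 5.32 and 4.83 in SI labelled females. The labelled females did not overlap, whereas SI labelled male 4 lay above 2 of the 4 SS labelled males. The difference over both slides was 1.25 ± 0.32 (log2, SE; limma adjusted p = 0.0246). This was the weakest of the 4 calls: it was lost when SI labelled female 28 (adjusted p = 0.0808), SI labelled female 27 (0.0637), SS labelled male 1 (0.062) or SS labelled male 2 (0.0519) was left out.

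Slc6a2, the noradrenaline transporter (probe A_52_P98614), was well above background on 1 array only, SS labelled male 3, where its level was 4.08. Its signal ranged from 1.86 to 4.29 in SS labelled males and from 1.14 to 3.44 in SI labelled males, and from 0.86 to 1.72 in SS labelled females, against 1.46 and 2.27 in SI labelled females. It was not tested. Of the cocaine-binding carriers, those of serotonin and dopamine were thus measurable on every array and that of noradrenaline was not.

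Ddc, aromatic amino acid decarboxylase, forms dopamine and serotonin from their precursors. Its brighter probe (A_55_P2110497) was well above background on 13 arrays, all but SI labelled female 28. The level was 6.71, 6.41, 6.14 and 5.92 in SS labelled males and 5.76, 4.91, 4.86 and 3.67 in SI labelled males. In labelled females it was 5.37, 5.34, 5.21 and 5.08 in SS and 4.22 and 4.11 in SI. All SS arrays lay above all SI arrays of their slide, and the difference over both slides was 1.33 ± 0.27 (log2, SE; limma adjusted p = 0.00614). With normexp background correction, another way of removing background, the difference was 0.47 (limma adjusted p = 0.368) and for Slc6a3 it was 0.63 (0.125), while Slc6a4 and Slc18a2 kept their calls (1.53, 0.00493 and 0.76, 0.032). A second Ddc probe (A_52_P63905) was well above background on 5 arrays, 4 SS and 1 SI, and was not tested.

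Th, tyrosine hydroxylase, is the first enzyme of dopamine and noradrenaline synthesis. Its probe (A_55_P2275249) was well above background on all 14 arrays. Its level was 7.03, 6.89, 6.45 and 5.38 in SS labelled males, against 7.78, 5.86, 5.58 and 4.99 in SI labelled males. In labelled females it was 5.72, 5.58, 4.86 and 4.42 in SS, against 6.79 and 5.67 in SI. The groups overlapped on both slides, and the difference was -0.20 ± 0.47 (log2, SE; limma adjusted p = 0.829). Without SI labelled male 4 the difference was 0.07 (limma adjusted p = 0.93). Th moved instead with the brightness of the arrays: among mice of a group, Pearson's r was -0.93 (Spearman's rho -0.88; exact permutation within groups, two-sided, adjusted over all tested probes p = 0.0136 and 0.0159; r = -0.94 without SI labelled males 6 and 7). The same rule called a negative correlation with brightness for 25.7% of tested probes and a positive one for 16.5%. The dimmest array, SI labelled male 4, carried the highest Th level, and the correlation was not repeated without that array. The part of brightness in the levels of Th was not tested further. Slc6a4, Slc18a2, Slc6a3 and Ddc had r between -0.64 and -0.45 with brightness, and none passed (exact permutation adjusted p = 0.27 to 0.479), whereas Maob passed by r (0.55, adjusted p = 0.0462) and not by rank (rho 0.53, 0.147).

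Tph1, the tryptophan hydroxylase that makes serotonin outside the brain, was well above background on 0 of 14 arrays. Its signal lay between 0.85 and 2.86 in SS mice and between 1.09 and 2.95 in SI mice, where values have no order. Of the serotonin pathway, uptake and vesicular storage were therefore measurable in these samples and the first step of synthesis was not.

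Maob, a monoamine oxidase found in glia and, in humans, in platelets, was well above background on 8 arrays: 3 of 4 SS and 3 of 4 SI labelled males, and 1 of 4 SS and 1 of 2 SI labelled females (probe A_51_P302566). Its signal was 4.64, 4.25, 4.23 and 3.83 in SS labelled males and 4.81, 4.64, 4.28 and 3.73 in SI labelled males. It was 4.49, 3.06, 1.95 and 1.80 in SS labelled females, against 4.57 and 2.25 in SI labelled females. The groups overlapped on both slides, with a difference of -0.31 ± 0.44 (log2, SE; limma adjusted p = 0.714). Maoa, the other monoamine oxidase, was well above background on 0 of 14 arrays.

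Within the labelled males, 4 SS against 4 SI, 0 members and 0% of all tested probes passed (limma; 5706 probes had an unadjusted p under 0.05). The differences were 1.41 ± 0.37 for Slc6a4, 1.18 ± 0.32 for Slc18a2 and 1.498 ± 0.347 for Ddc, each at limma adjusted p = 0.085. Slc6a3 differed by 0.97 ± 0.41 (adjusted p = 0.178), Th by 0.39 ± 0.56 (0.674) and Maob by -0.13 ± 0.58 (0.899). Without SI labelled male 4, 9424 of all 24033 tested probes passed, 5292 of them higher and 4132 lower in SS. Slc6a4, Slc18a2, Ddc and Slc6a3 were among the higher ones (1.31 to 1.82, limma adjusted p = 0.0143 to 0.0199). For Slc6a4, Slc18a2 and Ddc every SS labelled male lay above every SI labelled male, as it did for 8.4% of tested probes.

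Within the labelled females, 4 SS against 2 SI, Slc6a4 (1.92 ± 0.45, limma adjusted p = 0.0358) and Slc18a2 (1.67 ± 0.39, 0.0362) were higher in SS, where 3.19% of tested probes were. Slc6a3 differed by 1.67 ± 0.50 (limma adjusted p = 0.0833), Ddc by 1.09 ± 0.42 (0.206), Th by -1.08 ± 0.69 (0.508) and Maob by -0.58 ± 0.71 (0.77). Slc6a4, Slc18a2, Slc6a3 and Ddc each had all 4 SS labelled females above both SI labelled females, as did 16.6% of tested probes. The calls of Slc6a4 and Slc18a2 were lost without any 1 of the 6 labelled females, or without SS labelled male 2, SI labelled male 5 or SS labelled male 01b (Slc6a4 1.83 to 2.01, adjusted p = 0.0511 to 0.174; Slc18a2 1.61 to 1.70, 0.0533 to 0.164). Slide row as a term also ended both calls (adjusted p = 0.053 and 0.0527), and with normexp Slc18a2 differed by 0.67 (0.484). The difference between the sex labels was itself tested, and 0 members passed (limma adjusted p at least 0.505 for each), where 0.0458% of probes did. On both slides at once Slc6a4, Slc18a2 and Ddc did not overlap, as did 5.11% of tested probes.

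Pf4 and the other platelet markers differed in the same direction. Pf4 stood at 16.57, 16.45, 16.20 and 15.97 in SS labelled males and at 15.66, 15.45, 15.24 and 13.99 in SI labelled males. In labelled females it stood at 16.38, 16.19, 16.18 and 15.91 in SS and at 14.69 and 14.15 in SI. The groups did not overlap on either slide, and the difference was 1.43 ± 0.25 (log2, SE; limma adjusted p = 0.00474). Of 22 platelet markers 21 were higher in SS (median 1.56), beside 7.41% of all tested probes (median -0.04). Among the 21 were the chemokine Ppbp (1.31 ± 0.26, limma adjusted p = 0.00606) and the receptor subunits Itga2b (1.65 ± 0.34, 0.007) and Gp9 (1.44 ± 0.28, 0.00574). Selp was the marker that did not pass (0.74, 0.118). The platelet level of an array, the mean centred log2 signal of the 22 markers, none of them a member, averaged 0.76 ± 0.37 in SS and -0.58 ± 0.85 in SI labelled males (SD, n = 4 each). In labelled females it averaged 0.45 ± 0.19 in SS (n = 4) and -1.28 ± 0.24 in SI (n = 2). It was 1.496 higher in SS over both slides (exact permutation within slides, two-sided, p = 0.001, the smallest possible). In such bulk samples fewer platelets and less of these RNAs per platelet cannot be told apart.

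Whether the members follow platelet genes was asked among mice of the same group, so that the difference between SS and SI itself gave no support. The slope on platelet level, in a limma fit with the 4 groups as terms, was 1.03 ± 0.11 for Slc6a4 (adjusted p = 0.000806), 1.12 ± 0.14 for Slc6a3 (0.00118), 0.94 ± 0.12 for Ddc (0.00136) and 0.84 ± 0.13 for Slc18a2 (0.00265). A slope of 1 means that the gene changes as much as the mean platelet marker. The slopes of Pf4 (0.84 ± 0.13, adjusted p = 0.00278), Ppbp (0.95 ± 0.11, 0.000971), Gp9 (1.00 ± 0.13, 0.00133) and Itga2b (1.27 ± 0.15, 0.000923) spanned the same range, though these 4 are part of the platelet level. With normexp the slope of Ddc was 0.59 (limma adjusted p = 0.182). Th (0.53 ± 0.48, limma adjusted p = 0.436) and Maob (-0.02 ± 0.52, 0.974) had no slope past the threshold, nor had the dimmer Slc18a2 probe (0.41 ± 0.32, 0.37). Without SI labelled male 4 the slope of Th was -0.25 (limma adjusted p = 0.957). So 4 of 6 tested members had a positive slope that passed (limma adjusted p under 0.05), where 4.16% of tested probes did. The slopes lean on SI labelled male 6, the array of lowest platelet level (-1.77). Without it 0 probes and 0 members passed, while the slopes were 0.88 for Slc6a4, 1.23 for Slc6a3, 0.93 for Ddc and 0.48 for Slc18a2 (limma adjusted p = 0.081 to 0.15).

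**Figure D2:**
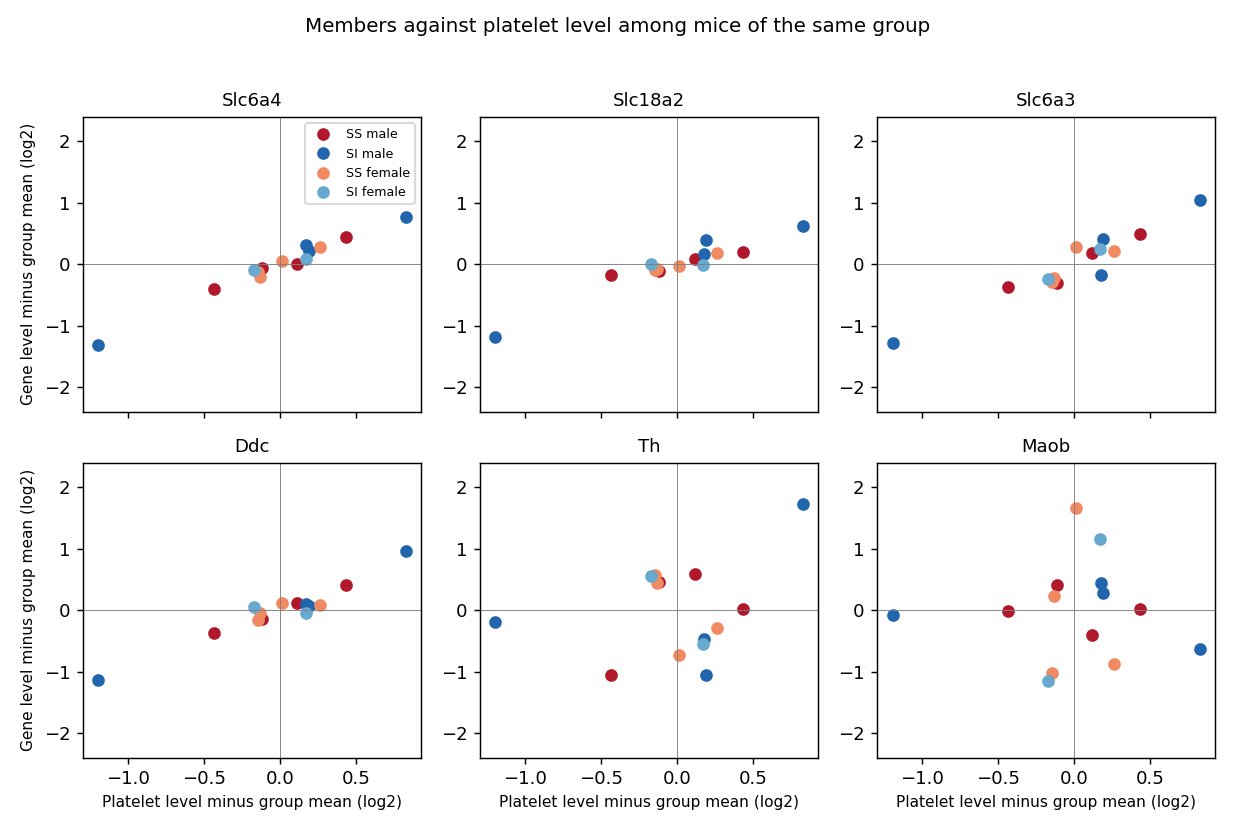
Level of each of the 6 tested genes (vertical axes) against platelet level (horizontal axes), both in log2 units as deviations from the array's own group mean (n = 14 arrays, 4 groups by colour). Slc6a4, Slc18a2, Slc6a3 and Ddc run along a rising line (r between 0.95 and 0.99) that SI labelled males 6 and 4 stretch at its ends, whereas Th (0.31) and Maob (-0.01) scatter.

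Correlations of the same group-centred values were computed beside the slopes. With platelet level, Pearson's r was 0.99 for Slc6a4 (Spearman's rho 0.97), 0.96 for Ddc (rho 0.80), 0.95 for Slc6a3 (rho 0.89) and 0.95 for Slc18a2 (rho 0.90; 14 arrays). The exact permutation p within groups, two-sided and adjusted over all tested probes, was 0.0124, 0.0329, 0.0142 and 0.0117 for r in that order (unadjusted 0.0001, 0.0009, 0.0002 and 0.0001). For rho it was 0.0183, 0.0972, 0.0272 and 0.0291, so that Ddc passed by r and not by rank. By that rule on r, 3.45% of tested probes correlated positively with platelet level. Without the 2 arrays farthest from the median, SI labelled male 6 and SI labelled female 28, r was 0.97 for Slc6a4, 0.95 for Ddc, 0.92 for Slc18a2, 0.88 for Slc6a3, 0.56 for Th and -0.28 for Maob. With Pf4 alone r was 0.94 for Slc18a2 (rho 0.84), 0.93 for Slc6a4 (rho 0.82), 0.88 for Slc6a3 (rho 0.84) and 0.86 for Ddc (rho 0.61), and none passed after exact permutation and adjustment over all probes (p = 0.052, 0.0802, 0.112 and 0.185 for r; 1.55% of tested probes passed). Without the same 2 arrays r with Pf4 was 0.86 for Slc18a2, 0.74 for Slc6a4, 0.70 for Ddc and 0.67 for Slc6a3. Pf4 itself correlated with the platelet level at 0.95. Th (r = 0.31, exact permutation adjusted p = 0.661) and Maob (-0.01, 0.963) did not pass with platelet level.

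With platelet level as a covariate in the comparison of SS with SI, 0 of 24033 probes passed. Slc6a4 then differed by 0.06 ± 0.19 (log2, SE; limma adjusted p = 0.957), Slc18a2 by 0.09 ± 0.22 (0.934), Ddc by 0.06 ± 0.30 (0.971) and Slc6a3 by -0.47 ± 0.25 (0.89). Th and Maob, at -0.71 ± 0.91 (0.892) and -0.20 ± 0.88 (0.967), kept differences within their error. The covariate itself differs between SS and SI, so the 2 terms overlap. Whether the members differ between SS and SI per platelet was not tested by any other measure.

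**Figure D3:**
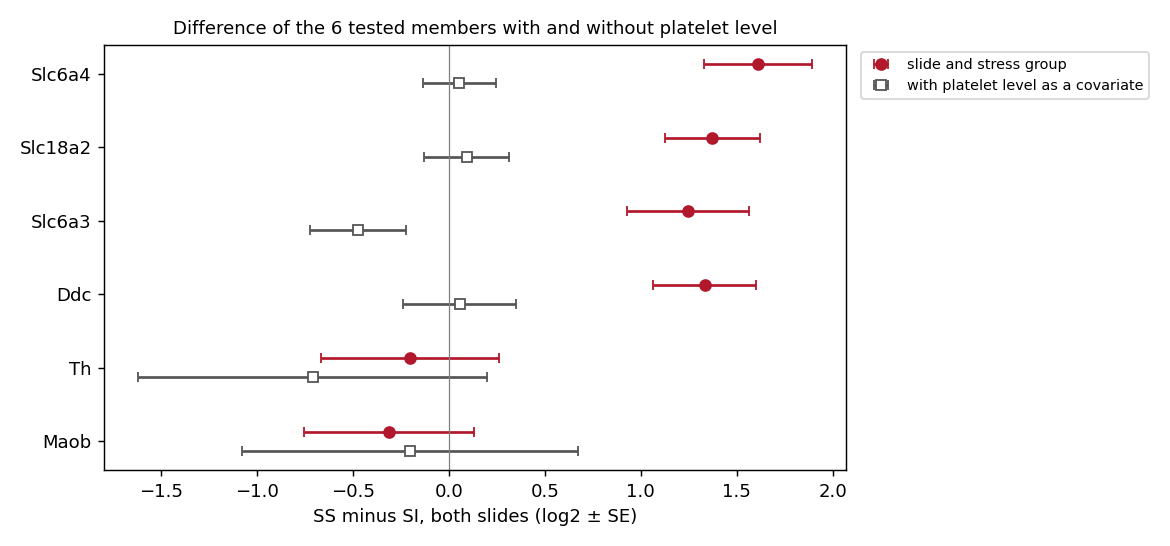
SS minus SI over both slides (horizontal axis, log2; bars are SE; 14 arrays) for the 6 tested genes, with slide and stress group as terms (filled circles) and with platelet level added as a covariate (open squares). Slc6a4, Slc18a2 and Ddc lie between 1.33 and 1.61 without the covariate and between 0.06 and 0.09 with it.

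The genes most like each member were ranked by Pearson's r of slide-centred signal over the 14 arrays and 11496 genes, a description in which the shared difference between SS and SI takes part. For Slc6a4 they included Clic4, Gp5, Sytl4 and Ilk (0.995 to 0.997), of which Gp5, a subunit of a platelet adhesion receptor, is on the platelet list. For Slc18a2 they included Gp1ba, Ssx2ip, Ankrd35 and Slc24a3 (0.991 to 0.993). For Slc6a3 they were Muc13, Ly6g6c, Grtp1, Ly6g6f and the collagen receptor subunit Gp6 (0.977 to 0.981). For Ddc they were Dstn, Rsu1, Map2k3, Rngtt and Gm12250 (0.979 to 0.987), none of them a listed platelet marker. Pf4 correlated at 0.98 with Slc6a4 and Slc18a2, 0.95 with Slc6a3 and 0.92 with Ddc. Among themselves Slc6a4, Slc18a2, Slc6a3 and Ddc correlated between 0.92 and 0.99.

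Th and Maob had other neighbours. Those of Th were Prr29, Ctrl, Tmc8, Celf4 and Ephb2 (0.986 to 0.991), and Th correlated at -0.06 with Pf4. Those of Maob were Ms4a7, Vma21, Cyp27a1, Rbks and Egln3 (0.867 to 0.888), and Maob correlated at -0.21 with Pf4. With the 4 members that were higher in SS, Th correlated between -0.07 and 0.17 and Maob between -0.22 and -0.13.

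Of the other genes of monoamine synthesis and its cofactor tetrahydrobiopterin, 8 of 12 were tested. In SS 1 was higher and 0 lower (median -0.11), beside 7.41% and 0.57% of all tested probes. The 1 was Gchfr, the feedback regulator of GTP cyclohydrolase, which differed by 1.62 ± 0.28 (limma adjusted p = 0.00474). Its level ranged from 10.86 to 12 in SS labelled males, against 10.56, 10.48, 9.96 and 8.86 in SI labelled males, and from 10.67 to 10.98 in SS labelled females, against 8.95 and 8.57 in SI labelled females. Gchfr did not overlap on either slide, and had a slope on platelet level of 0.94 ± 0.14 (limma adjusted p = 0.00213). The enzyme it regulates, Gch1, did not pass (-0.16 ± 0.16, 0.594), nor did Hdc, which makes histamine (-0.96 ± 0.38, 0.163).

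Of 14 further genes of amine transport and breakdown, 13 had a probe and 10 were tested. Aldh2, the mitochondrial aldehyde dehydrogenase that acts on the aldehydes left by monoamine oxidase, was the 1 that was higher in SS. Of the 10, 0 were lower (median -0.15), beside 7.41% of all tested probes higher and 0.57% lower. Aldh2 stood at 13.81, 13.45, 13.26 and 13.03 in SS labelled males and at 12.92, 12.32, 12.23 and 11.39 in SI labelled males. In labelled females it stood between 12.99 and 13.50 in SS and at 11.86 and 11.75 in SI. The groups did not overlap, and the difference was 1.24 ± 0.22 (limma adjusted p = 0.00474), with a slope on platelet level of 0.75 ± 0.12 (0.00318).

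The receivers of these transmitters were mostly below detection. Of 14 serotonin receptor genes 0 were tested: Htr5b was well above background on 2 arrays, Htr1f and Htr3b on 1 each, and the other 11 on 0. Of 15 dopamine, adrenergic and trace amine receptor genes 4 were tested, and 0 passed (limma; differences from -0.28 to 0.66, the highest for Adra2b at adjusted p = 0.338). Of the dopamine receptors Drd2 was well above background on 3 arrays, Drd3 and Drd4 on 1 each, and Drd1 and Drd5 on 0. Of 7 further proteins linked to cocaine, 3 were tested and 0 passed, among them the dopamine signalling protein Ppp1r1b (-0.09 ± 0.29, limma adjusted p = 0.878).

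Of 19 genes that build dense granules, the platelet organelle that holds serotonin, 17 were tested, and 1 was higher and 0 lower over both slides (median -0.20), beside 7.41% of all tested probes higher and a median of -0.04. The list was not tested against the serotonin carriers. That 1 was Rab27b, a small GTPase of platelet granule secretion (1.59 ± 0.29, limma adjusted p = 0.00489; slope on platelet level 1.05 ± 0.12, 0.000823). Its level was 12.18, 11.62, 11.36 and 10.85 in SS labelled males, against 10.86, 10.39, 10.37 and 8.95 in SI labelled males, so that SI labelled male 4 reached the lowest SS array. Its paralogue Rab27a was lower in SS labelled females (-1.25 ± 0.32, limma adjusted p = 0.0472) and did not pass over both slides (-0.63 ± 0.24, 0.145). Genes of the list such as the Hps genes also serve lysosome-related organelles of other cell types. The part of other cells in the values of this list was not tested.

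**Figure D4:**
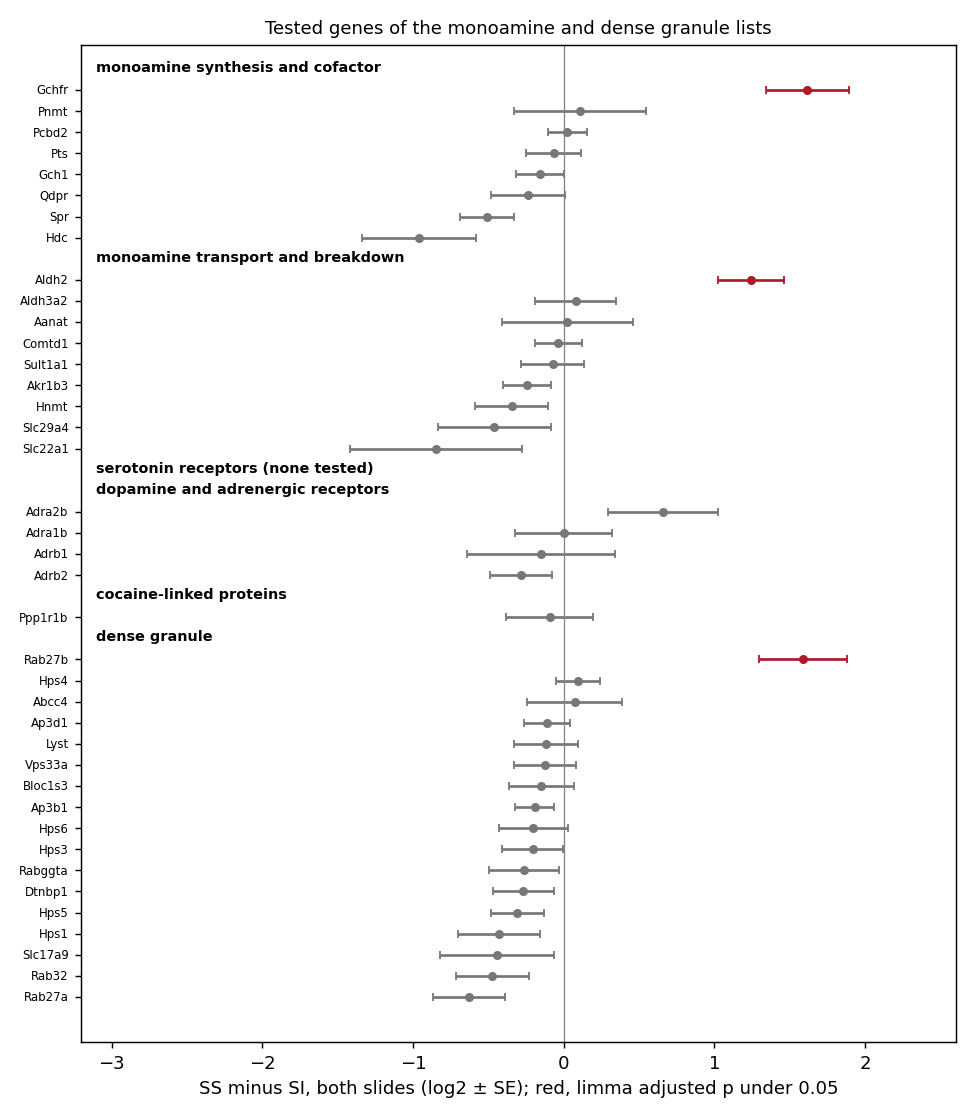
SS minus SI over both slides (horizontal axis, log2; bars are SE; 14 arrays) for other tested genes of the 6 monoamine, receptor, cocaine-linked and dense granule lists, 1 row per gene shown. Red marks a limma adjusted p under 0.05, which Gchfr, Aldh2 and Rab27b reached at 1.62, 1.24 and 1.59; the other genes shown lie between -0.96 and 0.66.

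Other cells that handle monoamines were checked by their markers. Of 11 mast cell and basophil markers with a probe, Cpa3, Ms4a2, Mcpt8, Kit, Cma1 and Prss34 were well above background on 0 arrays, and Fcer1a and Mcpt4 on 1 each. Of the 3 tested, Gata2, a transcription factor also of megakaryocytes, was higher in SS (1.69 ± 0.28, limma adjusted p = 0.00474). Il1rl1 (0.49) and Tpsb2 (0.094) did not pass. Their summed signal ranged from 406 to 575 in SS and from 193 to 467 in SI labelled males, and from 292 to 461 in SS and from 145 to 180 in SI labelled females. Their mean level was 0.757 higher in SS over both slides (exact permutation within slides, two-sided, p = 0.0029), with Gata2 the largest difference of the 3. Slopes of the 3 on platelet level ran from -0.23 to 0.92. Of these 1 passed as positive (limma adjusted p under 0.05), where 4.16% of tested probes did. Of 8 neuron markers 6 were tested. Gad1 (1.58 ± 0.30, limma adjusted p = 0.00506) and Rbfox3 (1.15 ± 0.27, 0.0166) were higher in SS, beside 7.41% of all tested probes. Slopes of the 6 on platelet level ran from 0.43 to 1.03, and 1 passed as positive (limma adjusted p under 0.05). Rbfox3 was well above background on 4 SS and 4 SI labelled male arrays, where the groups overlapped, but on 1 SS and 0 SI labelled female arrays. Map2 and Slc17a7 were well above background on 1 array each. The mean level of the 6 was 0.705 higher in SS over both slides (exact permutation within slides, two-sided, p = 0.0076). It was 0.945 higher in labelled males (exact permutation p = 0.0286, the smallest possible) and 0.346 higher in labelled females (p = 0.4). The summed signal of the 6 ranged from 28100 to 59200 in SS and from 14200 to 45900 in SI labelled males, and from 1710 to 2870 in SS and from 971 to 1870 in SI labelled females. Most of that sum came from 1 probe, that of Snap25. Its mean log2 level was 15.37 in SS and 14.40 in SI labelled males, against 10.79 in SS and 10.25 in SI labelled females. In labelled females 7 of 11 neutrophil markers were lower in SS, where 0.816% of all tested probes were, with a summed signal of 103000 to 129000 in SS against 326000 to 494000 in SI. In labelled males it was 172000 to 192000 in SS against 112000 to 173000 in SI. The mean level of the 11 neutrophil markers differed by -2.84 in labelled females and 0.59 in labelled males (SS minus SI). The exact permutation p was 0.0667 and 0.0286, the smallest possible on each slide. Over both slides the level differed by -0.78 (exact permutation p = 0.15). The mean level of 9 monocyte markers differed by -0.44 (SS minus SI) over both slides (exact permutation within slides, two-sided, p = 0.0219), with 1 of the 9, Nr4a1 (-0.88 ± 0.22, limma adjusted p = 0.0216), called lower, where 0.57% of tested probes were. Their summed signal ranged from 15200 to 20400 in SS and from 17600 to 21800 in SI labelled males, and from 10500 to 17200 in SS and from 18600 to 36500 in SI labelled females. The NK cell and erythroid levels differed by -1.17 and -1.18 in labelled females (exact permutation p = 0.0667 each, the smallest possible) and by -0.28 and 0.09 in labelled males (p = 0.714 and 0.943). The T cell and B cell levels differed by -0.36 and 0.07 over both slides (exact permutation p = 0.32 and 0.73). The part of these other cells in the members' differences was not tested.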

How the data were processed

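Blood RNA of 14 mice was measured on 14 Agilent arrays. The deposited scanner files hold processed signals as fluorescence intensity, from which the scanner software (Agilent Feature Extraction, version 10.7.3.1 per the file headers and 9.1 per the submitters' processing notes) had subtracted background, with no scaling between arrays. Flags for control spots, spots well above background and outlier spots are other deposited columns, per the file headers. The authors also deposited a log2 value table, made in a way that no label or header states; 27879 of its probes were used as an alternative.

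Outlier spots were left out, spots of a probe were averaged as log2 signal, and arrays were scaled to a common 75th percentile over the 14522 probes well above background on all 14 arrays, the mean percentile (9.39) being added back. Probes well above background on at least 6 arrays were tested (24033). Identifiers were named through RefSeq (26425 of 31063 matched), and a gene is its tested probe of highest mean signal. Groups came from the labels. Nothing in the labels says that arrays share an animal, and each label carries its own mouse number.

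All models used limma (3.58.1, R 4.3.3) at an adjusted p of 0.05 (Benjamini-Hochberg over all tested probes): slide and stress group, the 4 groups and their contrasts, and the 4 groups with platelet level. Exact permutations ran within slides for list levels and within the 4 groups for correlations (numpy 2.4.6). The code was tested on simulated data. Some genes of the lists are counted but not reported here by name. A gene of another list was named where it passed, and the others named beside it were chosen after their values were seen. The members and lists were chosen with earlier results of these data known, so the lists are no independent evidence.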

Additional observations from a re-analysis of the deposited data

How the results depend on the processing

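The higher level of Slc6a4 and Slc18a2 over both slides passed under every alternative but the platelet covariate. Ddc also lost it with normexp (0.47), and Slc6a3 with normexp (0.63), without a filter on dim probes (limma adjusted p = 0.0719) and without 4 single arrays named with its values. No paired analysis was possible because the groups share no mouse numbers. Probes above background on few arrays, and the 2 SI labelled females, limit what can be measured. Scaling by the 75th percentile of all probes shifted every difference by -0.18 in labelled males and 0.16 in labelled females (log2) and ended no call of a member.

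Over both slides 1918 probes passed (1781 higher, 137 lower), against 1245 with normexp, 1125 without a filter and 0 with the covariate. Members passing were 4, against 2 with normexp and 0 with the covariate. In labelled males 0 probes passed, against 2 with the 75th percentile of all probes, 1 with median scaling, 7 with quantile normalization and 204 in the deposited table. In labelled females 962 passed, against 422 with quantile normalization, 414 with normexp, 52 without a filter, 613 with a filter at 2 arrays, 434 in the deposited table, 543 with slide row as a term and 3 with the covariate. Members passing there were 2, against 1 with quantile normalization, normexp or the filter at 2 arrays, and 0 without a filter, in the deposited table, with slide row or with the covariate. The difference between sex labels was called for 11 probes, against 42 in the deposited table and 17 with the covariate. The slope on platelet level was called for 1233 probes, against 625 with the 75th percentile of all probes, 726 with quantile normalization, 720 with normexp, 352 without a filter, 1996 with probes above background on all arrays and 240 in the deposited table, and the slope of Ddc did not pass in the last (limma adjusted p = 0.0968) or with normexp (0.182).

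Leaving out single arrays gave 1488 to 3864 probes over both slides, the highest without SI labelled male 4. It gave 0 to 9424 in labelled males (9424 without SI labelled male 4, at most 1 otherwise), with 0 to 4 members. It gave 43 to 1919 in labelled females (1919 without SI labelled male 4, 43 without SS labelled female 23), with 0 to 3 members. It gave 1 to 664 for the difference (664 without SI labelled male 4, 88 without SI labelled female 27), and 0 to 3323 for the slope (0 without SI labelled male 6, 3323 without SI labelled male 7), with 0 to 4 members.

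Directions turned only where a member was not called or under the covariate. With the covariate Slc6a3 was -0.47 over both slides, -0.53 in labelled males and -0.28 in labelled females, Ddc was -0.55 in labelled females and Th was -0.32 in labelled males. With normexp Ddc was -0.038 in labelled females, and the difference between sex labels was 0.10 for Slc6a3 and 0.14 for Slc18a2. In the deposited table that difference was 0.007 for Slc18a2 and -0.15 for Ddc. Maob was 0.001 over both slides and 0.23 in labelled males with normexp, and -0.53 for the difference between sex labels with quantile normalization. Its slope was 0.35 with the 75th percentile of all probes, 0.07 with median scaling and 0.42 with normexp. Without single arrays Maob ranged from -0.59 to 0.072 over both slides, from -0.34 to 0.018 in labelled males, from -1.74 to 0.58 in labelled females, from -0.71 to 1.61 for the difference between sex labels and from -0.24 to 0.35 for the slope. Th ranged from -0.46 to 0.13 over both slides and from -0.25 to 1.34 for the slope. The causes were not tested.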
